A study of Drosophila melanogaster with 6 samples.

Results

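Complex III, complex IV and the ATP synthase are the last 3 machines of the mitochondrial respiratory chain. Complex III takes electrons from ubiquinol and hands them to cytochrome c, complex IV passes them on to oxygen, and both move protons across the inner membrane. The ATP synthase lets the protons return through a rotor and makes ATP. Most of their subunits are encoded in the nucleus, a few core ones in mitochondrial DNA, and both kinds must be made in step for the complexes to assemble. In the larval fat body, the fly's storage and secretory organ, the chain burns the reducing equivalents that fatty acid and sugar oxidation release. Adipokinetic hormone (AKH) is the fly counterpart of glucagon and acts on this organ to mobilise fat and sugar stores.

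The genes described here were chosen by name, as those whose symbol starts with ATPsyn, COX or UQCR-, with blw, levy, cype, RFeSP and Cyt-c1. Of 44 such genes 41 had at least 60 counts over all libraries, out of 15796 genes counted. UQCR-14L, with 63 counts, lay just inside that minimum, and COX6AL, with 34, was the first outside it, with UQCR-6.4L (23) and COX7AL2 (16). Cyt-c-p, the cytochrome c gene also sought, had no matching identifier and was not analysed here. The 41 genes are 30 subunit genes of the 3 complexes, 8 of complex III, 10 of complex IV and 12 of the ATP synthase, and 11 paralogues, genes named after a subunit with an added L or L2. The partners of COX6AL2 and COX6CL are levy and cype. That of ATPsynepsilonL is sun, which is not among the 30.

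RNA was sequenced from fat bodies of late 3rd instar Drosophila melanogaster larvae, strain w1118, with 3 libraries a group. AKH overexpression larvae had the genotype UAS-AKH/+; R4-Gal4/+, in which the fat body driver R4-Gal4 switches on an AKH transgene. Control larvae had R4-Gal4/+ alone, so both groups carried the driver. The hormone was thus made in a tissue that does not normally produce it, and the labels do not say whether each library had its own pool of larvae. The p-values then describe only how these libraries scatter, which may be technical scatter. Libraries held 29803513 to 33150911 counts. Akh itself stood at 2088, 1635 and 1839 CPM (counts scaled to library size with TMM factors) in AKH overexpression libraries, against 2.26, 2.45 and 1.82 CPM in control libraries. The 7 fat body markers had log2 fold changes of -0.21 to 0.44, with a median of -0.01.

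Other tissues were also present. The 9 midgut markers summed to 3.93, 700.1 and 7.79 CPM in AKH overexpression replicates 1 to 3, against 2745, 3871 and 1409 CPM in control replicates 1 to 3. The 11 muscle markers summed to 95.1, 110.3 and 113 CPM in AKH overexpression libraries, against 139, 116 and 150.2 CPM in control libraries. The muscle sum with AKH overexpression was 78.4% of the control sum in CPM and 65.1% in RPKM (reads per kilobase of gene scaled to the library total). The median log2 fold change of the 11 genes was lower, at -0.63 (64.4% of the control level). Of the 11 genes 2, the myosin light chain genes Mlc1 and Mlc2, fell. The muscle marker sls went the other way, with every AKH overexpression library above the controls (0.35, edgeR adjusted p = 0.221). None of the midgut or muscle markers was at 0 throughout. Both tissues are rich in mitochondria, and their part in the values below was not tested. The 30 subunit genes summed to 77.6% of the control sum. Control replicate 2 was the lowest control in summed subunit level (5564 CPM, with 6729 and 6848 CPM in control replicates 1 and 3) and in the muscle sum, and the highest control in the midgut sum. Sums of salivary gland markers (18872 to 29052 CPM with AKH overexpression, 22916 to 27094 CPM in controls), haemocyte markers (154 to 208 and 169 to 229 CPM) and neuron markers (318 to 374 and 294 to 411 CPM) overlapped between the groups, as did those of cuticle markers (15.7 to 170 and 66.4 to 102 CPM). Within the haemocyte list NimC1, a phagocytosis receptor, fell to 1.34, 0.604 and 1.01 CPM in AKH overexpression libraries, against 6.42, 5.48 and 4.63 CPM in control libraries (edgeR adjusted p = 0.0116). Pxn of the same list lay below the controls in every AKH overexpression library (log2 fold change -0.33, edgeR adjusted p = 0.204). The haemocyte marker He went the other way, with every AKH overexpression library above the controls (0.38, edgeR adjusted p = 0.200). Hml (-0.0050) and eater (0.07) overlapped between the groups. In the neuron list brp had 10.7 to 20.6 CPM with AKH overexpression and 8.25 to 11.9 CPM in controls (log2 fold change 0.70, edgeR adjusted p = 0.232). The neuron markers elav (0.38) and nSyb (0.22) were also on the positive side. Syt1, which made up most of the neuron sum, was at -0.08, and the median of the 4 genes was 0.30. The part of these cells was not tested either.

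All 30 subunit genes had a lower mean with AKH overexpression, at a median of 79.5% of the control level (median log2 fold change -0.33), where the median over all 10705 tested genes was 0.02. COX7A, a small membrane subunit of complex IV, and ATPsynCF6, a subunit of the stalk that holds the ATP synthase head still, fell. The 28 other subunit genes were not called at an adjusted p under 0.05 (quasi-likelihood test of edgeR, p adjusted after Benjamini-Hochberg across all tested genes). Of the 41 genes, 2 were called lower and 0 higher, where 1.91% of all tested genes were called lower, 1.87% higher and 3.77% in either direction. At an unadjusted p under 0.05, 28 of the 41, all of them subunit genes, were lower, against 10% of all tested genes, and 0 were higher, against 8.01%. A negative log2 fold change was found in 31 of the 41 genes and in 47.6% of all tested genes. All 3 AKH overexpression libraries lay below all 3 control libraries in 27 of the 30 subunit genes, where 13.5% of all tested genes had that order; the exceptions were UQCR-11, UQCR-6.4 and COX8. DESeq2 called 21 of the 41 lower, against 5.65% of all genes, limma-voom 1, against 1.69%, and edgeR in its robust form 1, against 1.92%. Quantile normalisation with limma called 7, against 2.76%, and edgeR limited to genes averaging at least 10 CPM called 6, against 3.96%. The calls of both genes were lost, with 0 of the 41 called, under RLE scaling, TMM without the 20 most abundant genes, removal of a gene length trend, no filter on low counts and a replicate block. Over all tested genes these settings called 197, 191, 220, 183 and 231 lower, in that order, against 204 in the main fit. With library size scaling COX7A and ATPsynO were called, and ATPsynCF6 was not (edgeR adjusted p = 0.106), with 246 of all tested genes called lower. In bulk RNA, fewer cells with the transcript and less of it per cell cannot be told apart.

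**Figure D1:**
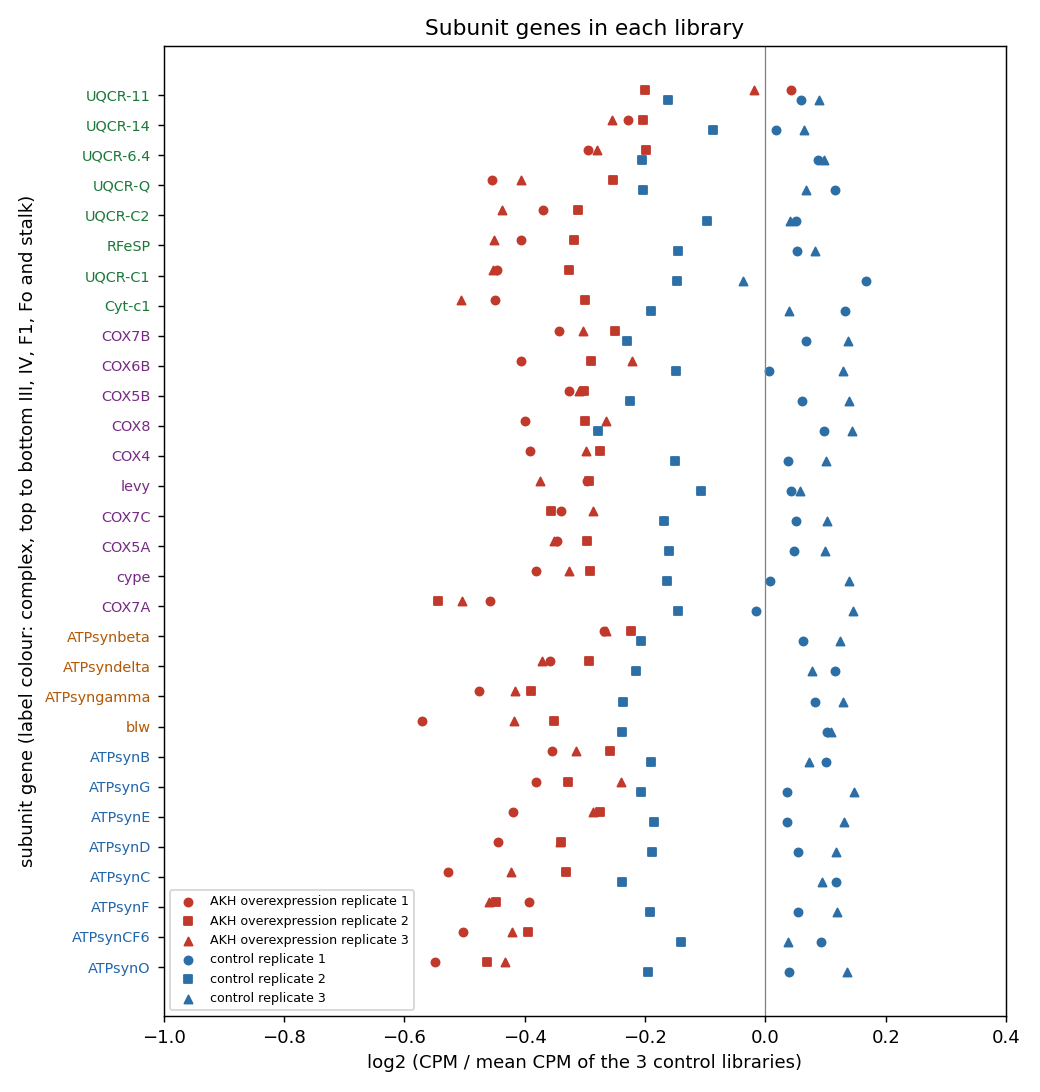
CPM of each of the 30 subunit genes in every library, as log2 of the ratio to the mean of the 3 controls (horizontal axis), with AKH overexpression in red and control in blue and the replicate given by the marker shape. The red points lie left of the blue ones in 27 genes, and control replicate 2 (blue squares) is the lowest control in all 30.

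The order of the libraries was much the same from gene to gene. Control replicate 2 was the lowest control in all 30 subunit genes, and control replicate 3 was the highest of the 6 libraries in 22 of them and control replicate 1 in the other 8. Among the AKH overexpression libraries replicate 1 was lowest in 18, replicate 3 in 9 and replicate 2 in 3. The median distance from the control mean was -0.39, -0.29 and -0.34 on the log2 scale in AKH overexpression replicates 1 to 3, and 0.06, -0.18 and 0.11 in control replicates 1 to 3. Without control replicate 2 the median log2 fold change of the subunit genes was -0.43 and 4 genes were called lower (ATPsynCF6, ATPsynF, ATPsynO and ATPsyngamma), and without control replicate 3 it was -0.28 with 0 called. Over all tested genes, 160 were called lower without control replicate 2 and 186 without control replicate 3.

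Summed over its genes, each complex was lower with AKH overexpression, with no overlap between the groups. Complex III held 628, 663 and 615 CPM in AKH overexpression libraries, against 864, 727 and 829 CPM in control libraries. Complex IV held 1028, 1058 and 1053 CPM, against 1363, 1189 and 1443 CPM in control libraries. The ATP synthase held 3121, 3398 and 3286 CPM with AKH overexpression, against 4501, 3647 and 4576 CPM in controls. The AKH overexpression means were 78.8%, 78.6% and 77.1% of the control means for complex III, complex IV and the ATP synthase. Whether the 3 complexes differed from each other was not tested. The SD of complex IV was 15.9 CPM with AKH overexpression and 130 CPM in controls (n = 3 each); the difference in spread was not tested.

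**Figure D2:**
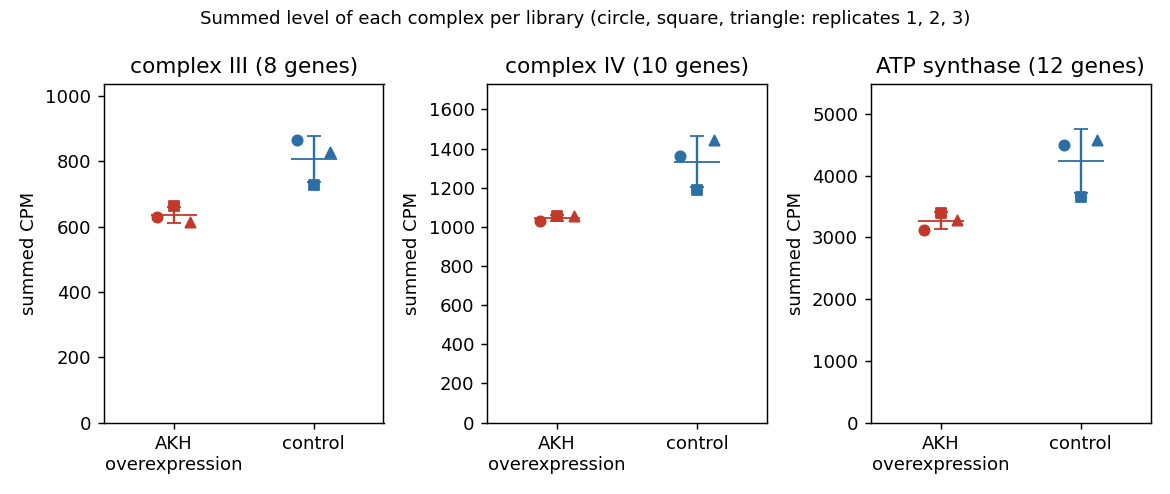
Summed CPM of the subunit genes of complex III, complex IV and the ATP synthase in each library (vertical axes start at 0), with the mean and SD of the 3 libraries of each group. AKH overexpression libraries lie at 615 to 663, 1028 to 1058 and 3121 to 3398 CPM, below every control library.

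In complex III, all 8 subunit genes had a negative log2 fold change, from -0.42 to -0.05, with 0 called by edgeR and 7 at an unadjusted p under 0.05. DESeq2 called 6 of them and limma-voom 0. Its nuclear-encoded electron carriers are Cyt-c1, whose haem passes electrons to cytochrome c, and RFeSP, the Rieske iron-sulphur protein that moves electrons to that haem. Cyt-c1 stood at 97.4, 108 and 93.8 CPM in AKH overexpression libraries, against 146, 117 and 137 CPM in control libraries (log2 fold change -0.42, SE 0.11, edgeR adjusted p = 0.111). RFeSP stood at 68.0, 72.3 and 66.0 CPM, against 93.5, 81.5 and 95.5 CPM in control libraries (-0.39, SE 0.09, edgeR adjusted p = 0.0721). Both genes had every AKH overexpression library below every control library.

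UQCR-C1 and UQCR-C2 encode the large core proteins on the matrix side of complex III. UQCR-C2 had the smallest p of the complex, with 104, 109 and 99.7 CPM in AKH overexpression libraries, against 140, 126 and 139 CPM in control libraries (log2 fold change -0.37, SE 0.08, edgeR adjusted p = 0.0637). UQCR-C1 had means of 148 ± 7.38 CPM with AKH overexpression and 196 ± 22 CPM in controls (SD, n = 3 each). For both core proteins the AKH overexpression libraries all lay below the controls. Of the small subunits, UQCR-14, the most abundant per length, stood at 63.5, 64.5 and 62.2 CPM with AKH overexpression, against 75.2, 70.0 and 77.7 CPM in controls, a log2 fold change of -0.23 (SE 0.07).

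UQCR-11 stood apart within the complex by its size of change. It had 55.7, 47.1 and 53.3 CPM in AKH overexpression libraries, against 56.3, 48.3 and 57.5 CPM in control libraries, and the groups overlapped (log2 fold change -0.05, SE 0.10, edgeR adjusted p = 0.838). Relative to UQCR-14 in the same library, its level per length was 0.978, 0.813 and 0.956 with AKH overexpression, against 0.835, 0.770 and 0.825 in controls, again with overlap. With 4 of its 7 partners in complex III, however, this ratio had no overlap. Its share of the summed complex III RPKM was 16.49%, 13.45% and 16.06% with AKH overexpression. In controls that share was 12.69%, 12.85% and 13.21%, without overlap. These ratios and shares were not tested. The sign of the log2 fold change of UQCR-11 depended on the processing, with 0.023 when a trend on gene length was removed and 0.0082 without AKH overexpression replicate 2. UQCR-6.4, another small subunit, had 40.1, 42.9 and 40.5 CPM, against 52.4, 42.7 and 52.7 CPM in controls, where control replicate 2 lay within the AKH overexpression range.

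**Figure D3:**
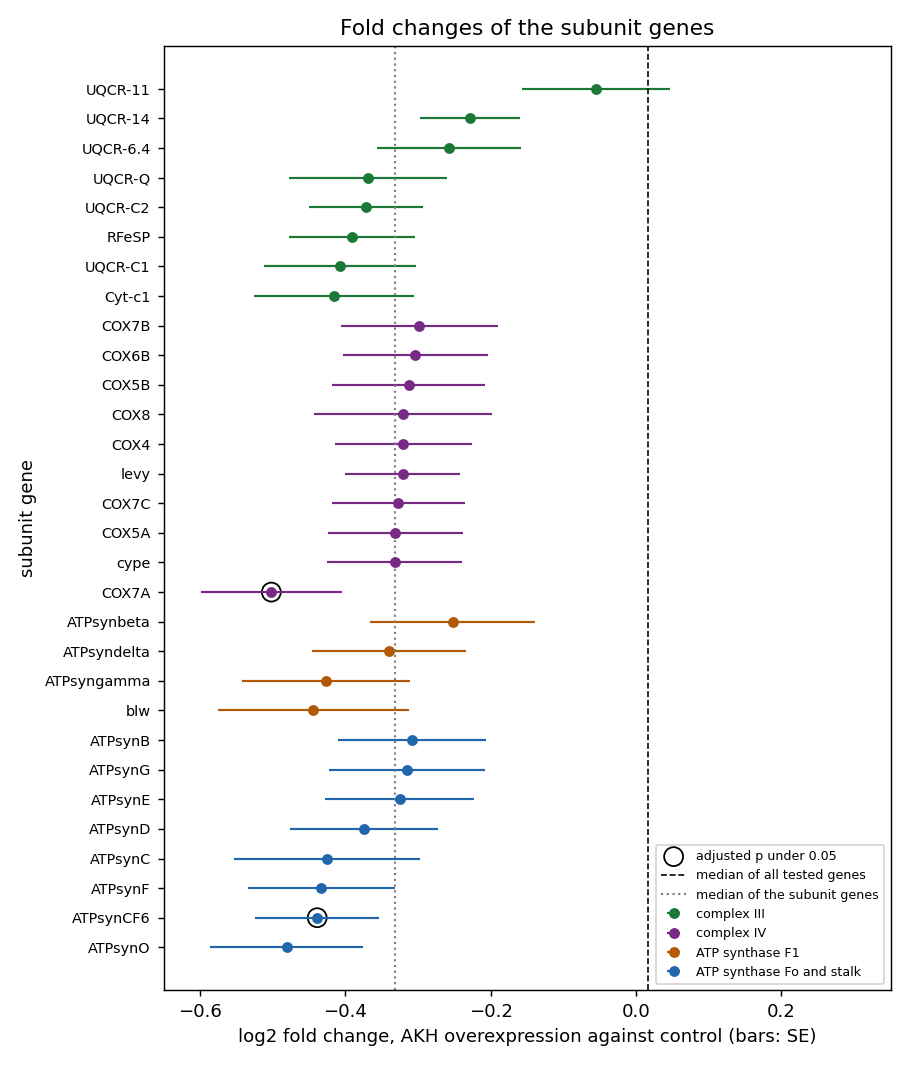
Log2 fold change of each subunit gene, AKH overexpression against control (horizontal axis), with its SE, coloured by complex. All 30 points lie left of 0; the circled COX7A (-0.50) and ATPsynCF6 (-0.44) had an adjusted p under 0.05, and UQCR-11 (-0.05) is nearest to 0.

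In complex IV, all 10 nuclear subunit genes had a negative log2 fold change, 1 fell and 9 were not called, all of them with an unadjusted p under 0.05. COX7A, the gene that fell, is a small subunit with a membrane helix at the edge of the complex. It stood at 160, 150.3 and 155 CPM in AKH overexpression libraries, against 217, 198 and 243 CPM in control libraries. The log2 fold change was -0.50 (SE 0.10, edgeR adjusted p = 0.0491), or 70.6% of the control level, the lowest of all 41 genes. Permuting the libraries over its log2 CPM (exact, two-sided, 20 splits) gave p = 0.1, which is the smallest p this design can reach. The call was lost when any 1 library was left out (adjusted p 0.0521 to 0.201), and the fold change then was -0.59 to -0.42.

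The 9 other complex IV genes had log2 fold changes of -0.33 to -0.30. COX4, a large subunit that sits on the mitochondrially encoded core, had 149, 161 and 159 CPM in AKH overexpression libraries, against 200.4, 176 and 209 CPM in control libraries (-0.32, SE 0.09). Levy, the fly COX6A, had 120, 120 and 113 CPM, against 151, 136 and 153 CPM in controls (-0.32, SE 0.08, edgeR adjusted p = 0.0935). Both had no overlap between groups. COX5B, a matrix subunit that binds zinc, had 75.6, 76.9 and 76.5 CPM, against 98.9, 81.2 and 104 CPM in controls, and cype, the fly COX6C, had 55.7, 59.3 and 57.9 CPM, against 73.0, 64.8 and 79.9 CPM in controls. COX8 alone of the 10 overlapped between the groups, at 40.5, 43.4 and 44.4 CPM with AKH overexpression, against 57.2, 44.1 and 59.0 CPM in controls, where control replicate 2 lay below AKH overexpression replicate 3.

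In the ATP synthase, all 12 subunit genes had a negative log2 fold change and no overlap between groups, 1 fell and 11 were not called. The F1 head, where ATP is made, is built from the alpha subunit blw and the beta subunit, which carries the catalytic sites, around the turning gamma subunit. The alpha gene blw (bellwether) had 659, 768 and 733 CPM in AKH overexpression libraries, against 1051, 830 and 1057 CPM in control libraries (log2 fold change -0.44, SE 0.13). ATPsynbeta had 776, 800.2 and 778 CPM, against 976, 810 and 1018 CPM in controls (-0.25, SE 0.11, edgeR adjusted p = 0.315). The smallest control value of ATPsynbeta was thus close to the largest value with AKH overexpression. ATPsyngamma had 190, 201 and 198 CPM, against 279, 224 and 288 CPM in controls (-0.43, SE 0.12).

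The membrane part Fo holds the proton-driven rotor, a ring of c subunits, and the outer stalk ties it to the head. The c ring gene ATPsynC had 605, 693 and 651 CPM in AKH overexpression libraries, against 946, 740 and 932 CPM in control libraries (log2 fold change -0.43, SE 0.13). Of the stalk genes, ATPsynCF6 had 69.0, 74.4 and 73.0 CPM with AKH overexpression, against 104, 88.7 and 100.2 CPM in controls. It fell, with a log2 fold change of -0.44 (SE 0.09, edgeR adjusted p = 0.0492), and the exact two-sided permutation p was 0.1, again the smallest possible. Leaving out 1 library ended the call in every case except control replicate 2 (adjusted p 0.0398 to 0.205). ATPsynO, at the top of the stalk, had 114, 121 and 123 CPM, against 171, 145 and 183 CPM in controls (-0.48, SE 0.10, edgeR adjusted p = 0.0687). The stalk genes ATPsynB and ATPsynD and the small membrane subunit genes ATPsynE, ATPsynF and ATPsynG had log2 fold changes of -0.43 to -0.31. ATPsynG, for example, had 79.8, 82.8 and 88.0 CPM, against 107, 90.1 and 115 CPM in controls (-0.32, SE 0.11). The epsilon subunit gene sun, which the naming rule does not take in, stood at 88.3, 89.5 and 87.5 CPM, against 114, 92.5 and 125 CPM in controls.

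Levels per gene length were compared between genes on the authors' RPKM, reads per kilobase of gene scaled to the library total. A gene of the ATP synthase averaged 225 ± 20.8 RPKM with AKH overexpression and 288 ± 26.2 RPKM in controls, a gene of complex IV 167 ± 12.4 RPKM and 209.7 ± 12.9 RPKM in controls, and a gene of complex III 91.3 ± 8.55 RPKM and 111 ± 10.8 RPKM in controls (SD, n = 3 each). Within the ATP synthase ATPsynC was highest, at 464 RPKM with AKH overexpression and 613 in controls, followed by ATPsynbeta (435 and 509.7), blw (316 and 423) and ATPsynF (249.8 and 332). In controls each of these 4 lay above the next in all 3 libraries without overlap, and the 8 genes below ATPsynF ran from ATPsynD (230.2) to ATPsynCF6 (169), each neighbour in that order overlapping the next.

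In complex IV, COX7A was highest, at 263 RPKM with AKH overexpression and 366 in controls, and COX8 lowest, at 93.6 and 115. COX7A, COX5A and levy followed each other in controls without overlap, and levy, COX4, COX6B, COX7B and cype overlapped as neighbours. Cype lay above COX7C and COX7C above COX5B without overlap, and COX5B and COX8 overlapped. The complex III genes spanned a narrower range, from UQCR-C2 at 65.3 RPKM with AKH overexpression and 83.4 in controls to UQCR-14 at 122 and 141, and every neighbour overlapped the next. The order of the 10 complex IV genes was the same in both groups. In complex III, UQCR-11 took rank 2 by mean RPKM with AKH overexpression and rank 4 in controls, and in the ATP synthase ATPsynO took rank 11 with AKH overexpression and rank 8 in controls, among neighbours that overlap.

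**Figure D4:**
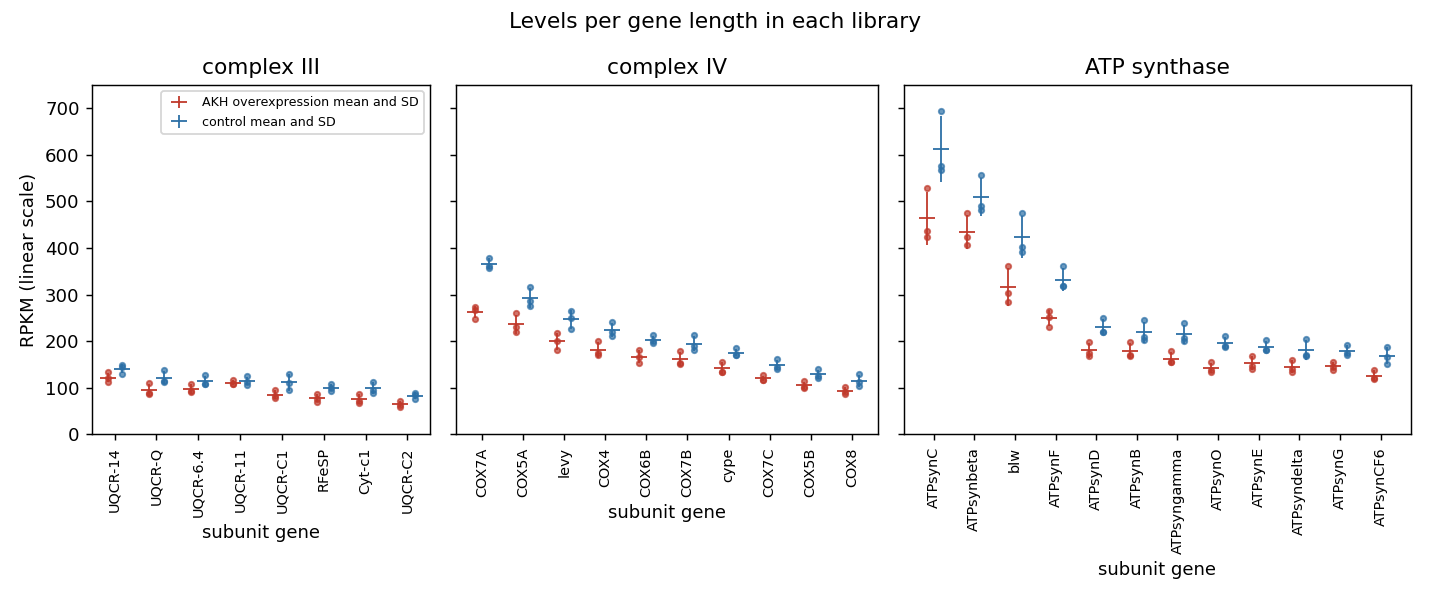
RPKM (linear axis) of each subunit gene by complex, ordered by the control mean, with each library as a point and the mean and SD of each group, AKH overexpression left of control. ATPsynC, ATPsynbeta, blw and ATPsynF stand above the other ATP synthase genes, and COX7A heads complex IV at 263 and 366 RPKM.

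Ratios of RPKM within a library do not depend on how libraries are scaled to each other. The ratio of blw to ATPsynbeta was 0.673, 0.760 and 0.746 in AKH overexpression libraries, against 0.854, 0.812 and 0.822 in control libraries. The ratio of ATPsynbeta to ATPsyngamma was 2.73, 2.65 and 2.63, against 2.33, 2.42 and 2.36 in controls, whereas blw to ATPsyngamma overlapped, at 1.84, 2.02 and 1.96, against 1.99, 1.96 and 1.94. ATPsynbeta thus took a larger part of the ATP synthase transcripts with AKH overexpression, at 16.1% ± 0.402 of the summed ATP synthase RPKM, against 14.7% ± 0.167 in controls (SD, n = 3 each). CG11076 overlaps ATPsynbeta on the other strand in a later annotation, and with the strand of counting not given their reads may be shared. COX7A relative to COX7C stood at 2.27, 2.16 and 2.12, against 2.35, 2.50 and 2.54 in controls. Ratios without overlap between the groups were counted over all pairs of genes within a complex. The share over pairs of other genes was not computed, so how common such ratios are in these libraries is not known. Ratios without overlap made up 25 of all 66 gene pairs in the ATP synthase (37.9%), 8 of 45 in complex IV (17.8%) and 11 of 28 in complex III (39.3%). Pairs that share a gene are not independent, and COX7A was in all 8 of the complex IV pairs. ATPsynbeta had no overlap with 8 of its 11 partners and COX7A with 8 of its 9. The ratios of this paragraph were described after their values were seen and were not tested.

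By gene length, the median log2 fold change was -0.06 over the 633 tested genes with an implied length under 600 bases and 0.04 over the 4802 genes in the longest of 4 length classes. Over the 2295 genes of at least 40 CPM it was -0.01. With a trend on gene length taken out of each library, the median of the 30 subunit genes was -0.27 and 0 were called.

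The 11 paralogues were scarce, and their counts varied widely between libraries of the same group. Paralogues of this kind in Drosophila are known mainly from the testis, where spermatids build an unusual mitochondrial structure beside the sperm tail. ATPsynbetaL had 123, 204 and 25 counts in AKH overexpression replicates 1 to 3, against 17, 96 and 28 counts in control replicates 1 to 3. COX4L had 72, 92 and 20 counts, against 18, 106 and 23 in controls, and COX5BL 31, 41 and 5 counts, against 13, 49 and 12. In each of these genes AKH overexpression replicates 1 and 2 and control replicate 2 were the high libraries, so that the groups overlapped widely. The same 3 libraries were above the other 3 in 9 of the 11 paralogues and in 0 of the 30 subunit genes. The share of all tested genes with that order was not computed, so how common it is in these libraries is not known.

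The remaining paralogues showed how low these levels were. COX6AL2 had 20, 40 and 0 counts in AKH overexpression libraries, against 8, 43 and 0 in control libraries, and COX6CL 15, 35 and 0, against 4, 24 and 9, where a count of 0 allows up to 3 counts (0.104 CPM in AKH overexpression replicate 3). COX7AL had 27, 27 and 5 counts, against 11, 43 and 3 in controls. ATPsynCF6L had 31, 34 and 6 counts, against 6, 38 and 6 in controls, and ATPsynGL 40, 38 and 2, against 8, 37 and 12. UQCR-14L had 13, 16 and 9 counts, against 3, 16 and 6. ATPsynepsilonL, the paralogue of sun, had 48, 94 and 23 counts, against 15, 27 and 27 in controls, so control replicate 3 equalled control replicate 2. UQCR-11L had 32, 29 and 24 counts, against 13, 25 and 22 in controls, and was the 1 paralogue with the CPM of every AKH overexpression library above every control library, where 10.8% of all tested genes had that order. UQCR-11L overlaps Acsl on the same strand in a later annotation, as ATPsynCF6L does Con and COX6AL2 does Ir75d. Only the gene spans were compared, and reads in such an overlap may come from either gene.

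Male germline transcripts moved with the paralogues. The 19 testis markers, which include the testis cytochrome c gene Cyt-c-d, summed to 47.4, 63.0 and 8.76 CPM in AKH overexpression replicates 1 to 3, against 12.2, 65.2 and 12.7 CPM in control replicates 1 to 3. Of the 19, 18 had AKH overexpression replicates 1 and 2 and control replicate 2 above the other 3 libraries, and 0 were at 0 throughout. For this order, too, no share over all tested genes was computed. The 11 paralogues summed to 13.8, 19.6 and 4.14 CPM in AKH overexpression libraries, against 3.74, 15.6 and 5.40 CPM in control libraries. The part of testis RNA in the paralogue counts was not tested. Cyt-c1L, a paralogue of Cyt-c1 that the naming rule leaves out, stood at 1.64, 3.14 and 0.348 CPM, against 0.129, 1.36 and 0.547 CPM in controls.

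**Figure D5:**
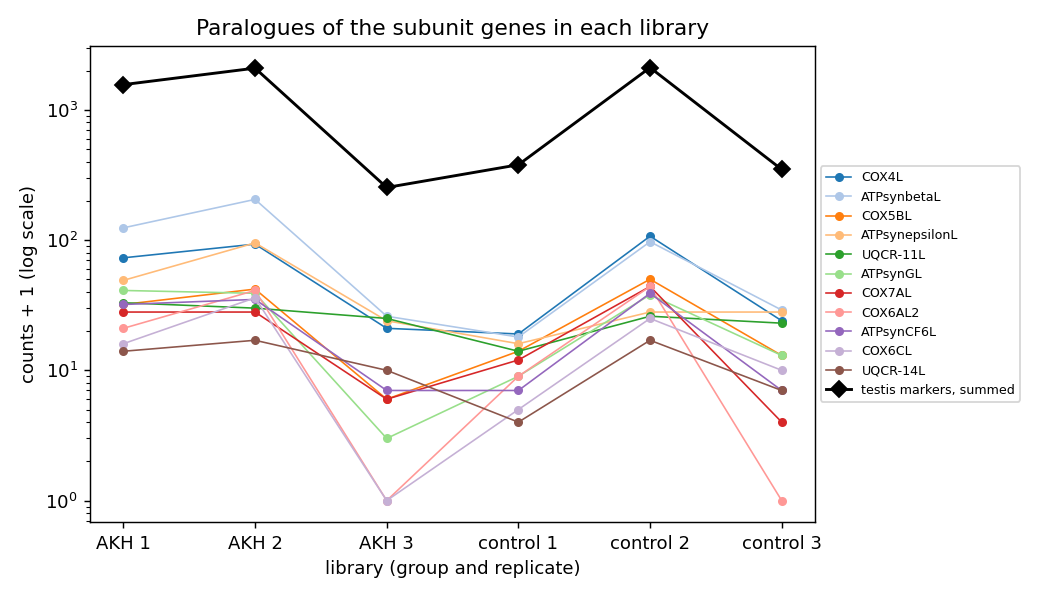
Counts plus 1 (log axis) of the 11 paralogues in each library, with lines joining the libraries of a gene, and of the 19 testis markers summed (black). The sum of the testis markers is 1557, 2084 and 252 counts in AKH overexpression replicates 1 to 3 and 377, 2105 and 347 counts in control replicates 1 to 3, and most paralogues are high or low in the same libraries.

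None of the 11 paralogues was called by edgeR, DESeq2 or limma-voom, and 0 had an unadjusted p under 0.05. Their log2 fold changes ran from -0.01 (COX5BL) to 1.24 (ATPsynbetaL, SE 0.84, edgeR adjusted p = 0.515). Their partners were far more abundant. ATPsynbeta, for example, had 25500 counts in AKH overexpression replicate 1, where ATPsynbetaL had 123.

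Complex I is the entry point for electrons from NADH. Of 36 tested nuclear genes named after it, 32 were on the negative side. The genes on the positive side were all paralogues with an added L, ND-49L (log2 fold change 0.70), ND-24L (0.81), ND-51L1 (0.65) and ND-20L (0.95). In each, AKH overexpression replicates 1 and 2 and control replicate 2 were the high libraries. The median of the 36, paralogues included, was -0.25. EdgeR called 0 of the 36, with 22 lower at an unadjusted p under 0.05. In complex II, the link to the citric acid cycle, 1 of 4 genes fell, the iron-sulphur subunit gene SdhB, at 54.9, 53.6 and 52.9 CPM in AKH overexpression libraries, against 71.4, 64.8 and 71.3 CPM in control libraries (log2 fold change -0.36, SE 0.07, edgeR adjusted p = 0.0450). The flavoprotein gene SdhA had 56.6, 63.1 and 56.9 CPM, against 78.9, 73.2 and 75.6 CPM in controls (-0.37, SE 0.07, edgeR adjusted p = 0.0563).

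The carriers that feed the ATP synthase were tested in 4 genes, with 0 called by edgeR and 1 lower at an unadjusted p under 0.05. Mpcp2, the phosphate carrier, had 281, 304 and 285 CPM with AKH overexpression, against 377, 337 and 415 CPM in controls (log2 fold change -0.38, SE 0.10, edgeR adjusted p = 0.123). The ADP/ATP carrier gene sesB had 497, 567 and 455 CPM, against 649, 530.1 and 598 CPM, and overlapped between groups, as did the outer membrane channel gene porin. In a list of 12 assembly factors and cytochrome relatives, Cyt-c1L and Cyt-c-d among them, edgeR called 0, with 2 lower and 1 higher at an unadjusted p under 0.05 and a median of -0.09. The sum of that list was 96.3% of the control sum in CPM. In it Surf1, needed to assemble complex IV, had 6.82, 6.38 and 6.19 CPM, against 7.87, 8.33 and 9.92 CPM in controls. Fdx2, the 1 higher gene, had 23.6, 25.6 and 21.9 CPM, against 19.9, 16.2 and 21.5 CPM in controls (log2 fold change 0.30, edgeR adjusted p = 0.269). Cox11, which delivers copper to complex IV, had 3.53, 4.32 and 3.44 CPM, against 5.19, 4.92 and 6.09 CPM (-0.52, SE 0.15, edgeR adjusted p = 0.128), and Cox10 and Cox17 overlapped between the groups.

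Genes that maintain and read mitochondrial DNA, and nuclear regulators of respiratory genes, had medians near that of all genes. For the 9 tested genes of mitochondrial DNA and RNA the median was 0.00, with 0 called by edgeR and 1 lower at an unadjusted p under 0.05. In 3 of the 9 every AKH overexpression library lay above every control library, where 10.8% of all tested genes had that order. These were PolG1 (log2 fold change 0.22), mTerf3 (0.23) and mTerf5 (0.07), and 0 of the 9 had the opposite order. TFAM, which packages mitochondrial DNA, had 28.1, 25.1 and 25.6 CPM in AKH overexpression libraries, against 28.1, 26.7 and 28.5 CPM in control libraries. For the 9 regulators the median was 0.11, with 0 called and 0 at an unadjusted p under 0.05. Srl, the fly PGC-1 coactivator of mitochondrial genes, had 21.1, 23.0 and 21.0 CPM, against 22.9, 16.9 and 19.3 CPM, and Ets97D, the fly counterpart of a nuclear respiratory factor subunit, had 8.22, 6.56 and 6.95 CPM, against 6.45, 6.84 and 6.82 CPM. In both genes the groups overlapped.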

How the data were processed

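RNA of 3 AKH overexpression and 3 control fat body samples was extracted with Trizol and made into libraries with a TruSeq RNA kit, per the labels' protocols. The authors deposited raw read counts per gene and RPKM, in which those reads are divided by gene length and depth. The submitters' processing notes name DESeq 1.10.1, HTSeq 0.5.4p3, Bowtie2 2.0.6, TopHat2 2.0.9 and build BDGP5, without roles. Strand, annotation release and multi-mapping: not given in the sources used here. The deposited RPKM equal the deposited counts divided by library total and 1 length per gene (largest relative spread 1.04e-07 in 7684 genes). Symbols were found for 15000 of 15796 identifiers. Of the 41 genes, 18 overlap another gene in a later annotation (BDGP6), 6 of them on the same strand.

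The count test was that of edgeR 4.0.16, run in R 4.3.3 (default filter, TMM, quasi-likelihood F test, no covariate, Benjamini-Hochberg over 10705 genes; square root of the common dispersion 0.308). All 41 genes passed the filter. CPM use TMM-scaled library sizes, with a prior count of 2 for log2 CPM. A floor of 3 counts corresponds to 0.0907 to 0.109 CPM per library, and such limits cover counting error only. Chi-square per degree of freedom between libraries of a group was 39.3 to 94.3, so no library repeats another. Alternatives covered scaling, tools (DESeq2 1.42.0, limma 3.58.1), thresholds, low-count filters, log2 RPKM tested by limma with a pseudocount of 1 or 0.1, a replicate block and each library left out. The tests were tried on simulated data. Values per library are given for called genes, the most abundant gene and the smallest p of each role group, the extremes, and each paralogue with its partner (24 genes); the others were named after their values were seen. The genes and lists were chosen with earlier results of these data known.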

Additional observations from a re-analysis of the deposited data

How the results depend on the processing

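For the subunit genes the direction held with the exceptions given here, and the calls often did not. The 30 subunit genes kept a negative log2 fold change in every scaling, tool and filter tried, except UQCR-11 with the gene length trend removed (0.023) and without AKH overexpression replicate 2 (0.0082). Their median was -0.34 to -0.27 over these alternatives and -0.43 to -0.28 with 1 library left out. The median of all 41 genes was -0.42 to -0.27 with 1 library left out, and the number with a negative fold change 30 to 35. The ratios of summed CPM were -0.41 to -0.29 (complex III), -0.42 to -0.29 (complex IV) and -0.47 to -0.32 (ATP synthase) on the log2 scale with 1 library left out.

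The count of genes called lower among the 41 was 2. It was 0 with RLE scaling, with TMM without the 20 most abundant genes, with the length trend removed, with no filter and with the replicate block, 1 with limma-voom and with robust edgeR, 6 with a mean of at least 10 CPM, 7 with quantile normalisation, 21 with DESeq2, 0 at an adjusted p under 0.01, 7 at one under 0.1, and 0 to 4 with 1 library left out. Genes called higher among the 41 were 0 throughout. Over all genes, 183 to 231 were called lower with RLE scaling, TMM without the 20 most abundant genes, the length trend removed, no filter and the replicate block. Over all genes, 200 were called higher and 204 lower, against 419 and 605 with DESeq2, 64 and 68 at an adjusted p under 0.01, 323 and 398 at one under 0.1, and 74 to 293 and 68 to 186 with 1 library left out. The cause of these differences was not tested. The labels do not say that equal replicate numbers pair the samples, and they were not treated as pairs. Deviations from the group means correlated at -0.369, 0.600 and 0.502 for replicates 1 to 3. Of the 6 samples, 3 correlated best with the sample of their own number. With 3 libraries a group these values cannot decide whether the samples are paired. With the replicate block 199 genes were called higher and 231 lower.

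With 1 library left out, the log2 fold change of several genes changed sign: ATPsynGL ranged from -0.0063 to 1.21, COX4L from -0.13 to 1.39, COX5BL from -0.49 to 0.86, COX6AL2 from -0.77 to 2.16, COX6CL from -0.78 to 1.13, COX7AL from -0.47 to 1.34 and UQCR-11 from -0.15 to 0.0082. COX5BL was 0.00014 with upper quartile scaling and 0.046 with the length trend removed, COX7AL -0.032 with library size scaling, and COX6CL -0.33 with quantile normalisation, -0.57 with limma-voom and -0.32 on log2(RPKM + 0.1). The paralogues had 0 to 204 counts a library, where counting error is larger than for the subunit genes, which had over 1000 counts in each library.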

Other observations

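Mitochondrial DNA encodes some core subunits of these complexes and of complex I. All 13 mitochondrially encoded protein genes were on the negative side with AKH overexpression, at a median log2 fold change of -0.54. EdgeR called 0, with 4 lower at an unadjusted p under 0.05. The median takes in scarce genes such as mt:ND3, mt:ND4L and mt:ND6 (SE 0.35, 1.01 and 0.43). Summed, the 13 genes stood at 78.5% of the control level. The sums were 10268 to 11495 CPM with AKH overexpression and 11300 to 16709 CPM in controls. The abundant mt:CoI and mt:CoIII were each at -0.32. Cytochrome oxidase subunit mt:CoI stood at 4997, 5238 and 5825 CPM in AKH overexpression libraries, against 6422, 5462 and 8196 CPM in control libraries, and the groups overlapped. The ATP synthase rotor partner mt:ATPase6 had 301, 347 and 349 CPM, against 586, 390 and 683 CPM in controls, with no overlap (log2 fold change -0.73, SE 0.21, edgeR adjusted p = 0.135). The complex III gene mt:Cyt-b had 17.5, 22.3 and 21.5 CPM, against 33.9, 24.7 and 39.2 CPM, again with no overlap (-0.67, SE 0.19, edgeR adjusted p = 0.125). As in the nuclear subunit genes, control replicate 2 was the lowest control in mt:CoI, mt:ATPase6 and mt:Cyt-b. How much of mitochondrial RNA a library takes up depends on RNA selection, a step not given in the sources used here.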
